A study of Homo sapiens with 12 samples.

Results

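The expression of 10 genes of the integrated stress response was examined in gingival and skin keratinocytes before and after hydrogen peroxide (H2O2): ATF4, ATF3, DDIT3, PPP1R15A, TRIB3, CHAC1, ASNS, SESN2, DDIT4 and GDF15. They were taken by gene name from a table of raw read counts for 58735 genes, and each name was found once. Polyadenylated RNA was sequenced from TIGK, a telomerase-immortalized line of human gingival keratinocytes, and from HaCaT, an immortalized line of human skin keratinocytes, both kept in the same keratinocyte medium. Each line was left untreated (TIGK control, HaCaT control) or exposed to 5 mM H2O2 for 3 h (TIGK H2O2, HaCaT H2O2), with 3 libraries in each of the 4 groups and no gene altered by the study in any of them. Each tissue was represented by 1 line, so the tissue of origin and the line cannot be told apart. The labels do not say that replicates came from separate cultures, so p-values measure only the spread between these libraries, which may be technical.

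The integrated stress response begins when a kinase that senses stress (EIF2AK1, EIF2AK2, EIF2AK3 or EIF2AK4) phosphorylates the alpha subunit of the translation factor eIF2. This slows protein synthesis in general but raises the translation of a few mRNAs, among them that of the transcription factor ATF4. ATF4 and the factors it induces switch on genes for amino acid supply, redox balance and, if stress lasts, cell death, and PPP1R15A closes the loop by directing a phosphatase to eIF2alpha. Since ATF4 is regulated largely through its translation, its mRNA and its activity need not move together.

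Library totals lay between 30426401 and 49034244 counts. All 8 keratinocyte markers, KRT5 and KRT14 among them, reached a mean of at least 10 normalized counts in every group, and their summed level ranged from 1014910 to 1355800 per library. Summed levels of the 4 leukocyte markers stayed at or under 5.92 normalized counts, those of the 3 endothelial markers between 5.80 and 59.7 and those of the 4 melanocyte markers between 27.8 and 93.8. The 5 fibroblast markers summed to 791 to 918 normalized counts in TIGK libraries and 304 to 418 in HaCaT libraries, mostly from COL1A1. Mitochondrial genes took 3.39% ± 0.0607 (SD, n = 3) of the counts in TIGK control and 1.43% ± 0.0614 in TIGK H2O2, against 6.18% ± 0.0792 in HaCaT control and 3.40% ± 0.103 in HaCaT H2O2. This share did not overlap between control and treated libraries of either line (exact permutation test, two-sided, p = 0.1, the smallest value that 3 against 3 allows). With the mitochondrial chromosome left out of the counts, the 48 log2 fold changes of the 10 genes that were followed kept their direction and their side of the limit used here. They include ASNS and GDF15 between the lines, which had to differ for the reason given below.

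In both lines, the genes for the transcription factors ATF4, ATF3 and DDIT3 and for the phosphatase subunit PPP1R15A were upregulated by H2O2, with ATF3 rising 2.94-fold in TIGK and 11.6-fold in HaCaT. TRIB3, which encodes a pseudokinase that restrains ATF4, fell in TIGK and rose in HaCaT, and SESN2 fell in TIGK. A gene was called when its adjusted p was under 0.01 (edgeR quasi-likelihood test on counts, Benjamini-Hochberg over the 16618 genes whose raw count averaged 10 or more). All 10 genes reached that mean, ASNS and GDF15 only through TIGK, since their mean raw counts in HaCaT libraries were 5.5 and 0.833. In TIGK, 4 of the 10 were upregulated and 2 were downregulated, where 10.2% of all genes tested rose, 12.9% fell and 23.2% changed in either direction. In HaCaT, 5 of the 10 were upregulated, where 18.9% of all genes tested rose and 34.1% changed in either direction. The number downregulated in HaCaT was 0 by edgeR at an adjusted p under 0.01, where 15.2% of all genes tested fell. By DESeq2, and at an unadjusted p under 0.05 in edgeR, the number was 0 as well. ASNS and GDF15 are among the 10 here, but their few counts in HaCaT left little room for a call in either direction. Control and treated libraries did not overlap for 9 of the 10 genes in TIGK and for 6 in HaCaT, where this held for 51.1% and 53.8% of all genes tested. Leaving out GDF15, which had almost no counts in HaCaT, the median log2 fold change of the other 9 genes was 0.22 in TIGK and 0.68 in HaCaT, beside 0.00842 and 0.0375 over all genes tested. These 9 still include ASNS, whose counts in HaCaT were few, so the HaCaT median rests in part on an uncertain value. In bulk RNA, a change in the number of cells that express a gene and a change in the RNA per cell cannot be told apart.

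**Figure D1:**
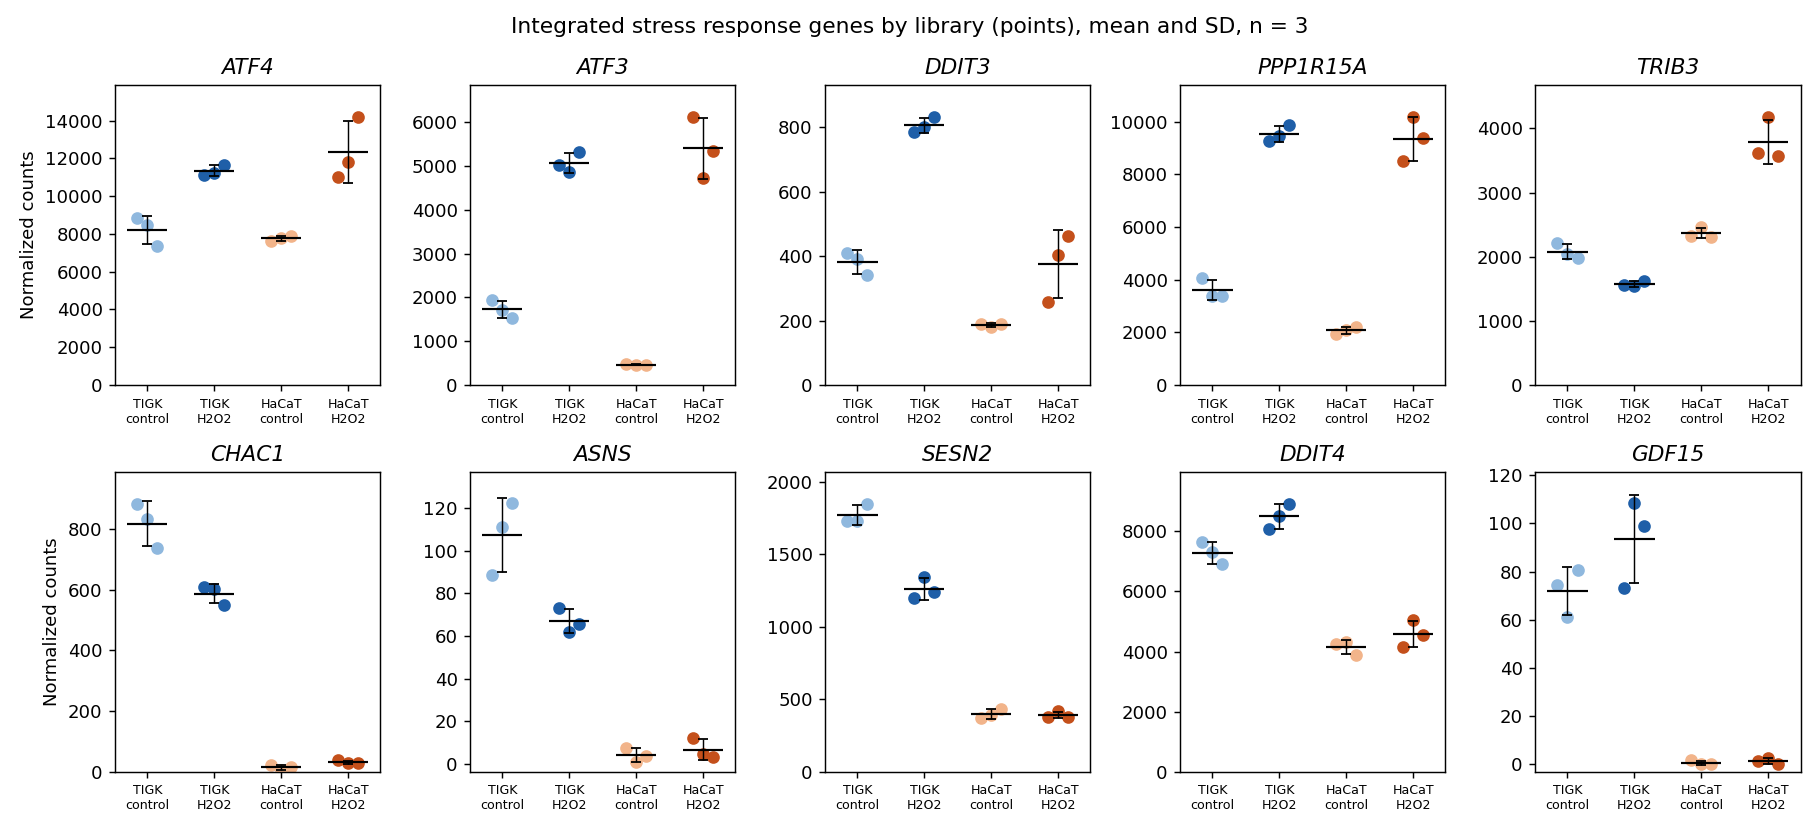
Normalized counts of the 10 genes (y axis, 1 scale per panel) in each library, by group (x axis), where points are libraries, horizontal lines are means and bars are SD with n = 3. ATF3 and PPP1R15A reached similar levels in both treated groups from different starting levels, TRIB3 moved in opposite directions, and CHAC1, ASNS and GDF15 stayed near the base line in HaCaT.

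The binding motif of ATF4 with a C/EBP partner was looked for in the promoters of all 10 genes, and the bases around each match are shown. The letters searched were TGATGNAA on either strand, in the 250 bases before and 50 after each RefSeq transcript start (GRCh38.p14). All 10 genes had such a window, with 16 starts in all. The motif was present in ATF3, CHAC1 and ASNS, that is in 3 of 16 windows, against 3.62% of 35116 windows and 4.46% of 27305 genes overall. ATF3 (chr1:212614768-212615067) and ASNS (chr7:97872116-97872415) each also had a window without the motif. In ATF3 it lay at bases -191 to -184 from the start (chr1:212565205-212565234, plus strand, for the bases shown), in CHAC1 at -209 to -202 (chr15:40953251-40953280, plus strand, with the motif on the other strand) and in ASNS at -68 to -61 (chr7:97872458-97872487, minus strand). By GENCODE v44, longer transcripts of CHAC1 and ASNS start before these bases. PPP1R15A holds TGACGTCA, the palindromic CRE bound by ATF and CREB factors, at -58 to -51 (chr19:48872352-48872381, plus strand). This second motif was picked after the values were seen, does not overlap the first, and occurs in 1.85% of windows and 2.25% of genes. Capitals mark the motif.
ATF3: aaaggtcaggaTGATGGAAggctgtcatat
CHAC1: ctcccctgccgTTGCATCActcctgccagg
ASNS: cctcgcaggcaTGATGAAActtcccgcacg
PPP1R15A: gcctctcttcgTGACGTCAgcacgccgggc
A match in letters does not show binding.

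ATF4, the central factor of the pathway (ENSG00000128272, chr22:39519695-39522685, plus strand, GRCh38) had a similar level in both untreated lines and a higher one in every treated library. Normalized counts, which are counts divided by TMM-adjusted library size and brought to the mean size, were 8821, 8465 and 7379.7 in the TIGK control libraries and 11147, 11220.5 and 11669 after H2O2. In HaCaT they were 7633, 7783 and 7891 in control libraries and 11027, 11787 and 14189 after H2O2. Treated and untreated libraries were fully separated in both lines. H2O2 changed ATF4 by a log2 value of 0.46 in TIGK (SE 0.0778, adjusted p = 0.000136) and 0.67 in HaCaT (SE 0.0780, adjusted p = 2.12e-06), and their difference did not pass (TIGK minus HaCaT -0.20, SE 0.110, adjusted p = 0.259).

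ATF3 (ENSG00000162772, chr1:212565334-212620777, plus strand) encodes a stress-induced factor of the ATF/CREB family and showed the largest rise of the 10 genes in both lines. The motif shown lies in only 1 of its promoter windows. Counts are per gene, so the start that gave the reads is not known. The TIGK control libraries held 1932, 1711 and 1535 normalized counts and the treated ones 5018, 4869 and 5317. HaCaT started lower, at 476, 454 and 465, and reached 6114, 4729 and 5351. Treated libraries of the lines thus overlapped while untreated ones did not. The log2 fold change was 1.55 in TIGK (SE 0.0864, adjusted p = 1.03e-10), the 99th highest of the 16618 genes tested, and 3.54 in HaCaT (SE 0.0965, adjusted p = 3.55e-15), the 39th highest. The response in TIGK was smaller (TIGK minus HaCaT -1.98, SE 0.126, adjusted p = 7.72e-09).

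DDIT3 (ENSG00000175197, chr12:57516588-57521737, minus strand) encodes CHOP, a factor linked to cell death under prolonged stress. Its normalized counts were 411, 392 and 341 in TIGK control and 786, 799 and 831 in TIGK H2O2. In HaCaT they were 189.5, 180.2 and 191 before and 257, 405 and 463 after H2O2, so that replicate 1 lay below the other two treated libraries but above every control library. The log2 fold changes were 1.08 in TIGK (SE 0.148, adjusted p = 1.60e-05) and 1.00 in HaCaT (SE 0.159, adjusted p = 5.76e-05). Their difference was 0.07 (SE 0.217, adjusted p = 0.880) and became -0.08 without HaCaT H2O2 replicate 1. By GENCODE v44, DDIT3 shares 355 of its 1307 exon bases with MARS1 and 58 with MBD6, both on the other strand. It also shares 105 with ENSG00000285133, on the same strand. The use of strand in the counting and the handling of shared reads are not given in the sources used here. Reads from these bases therefore cannot be assigned with certainty. MARS1, listed as MARS with up to 7991 counts in a library, had a log2 fold change of 0.07 in TIGK (adjusted p = 0.265) and rose by 0.22 in HaCaT (SE 0.0498, adjusted p = 0.00139).

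PPP1R15A (ENSG00000087074, chr19:48872392-48876057, plus strand) encodes GADD34, the inducible subunit through which protein phosphatase 1 removes the phosphate from eIF2alpha. Normalized counts rose from 4056, 3397 and 3368 in TIGK control to 9258, 9439 and 9871 in TIGK H2O2. In HaCaT they rose from 1940.2, 2080.0 and 2200.1 to 8508, 10172 and 9363. As with ATF3, the lines differed before treatment and overlapped after it. PPP1R15A rose by a log2 value of 1.40 in TIGK (SE 0.0761, adjusted p = 7.70e-11) and 2.17 in HaCaT (SE 0.0786, adjusted p = 2.15e-13), a difference of -0.77 (SE 0.107, adjusted p = 0.000101).

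TRIB3 (ENSG00000101255, chr20:362835-397559, plus strand) was the one gene of the 10 called in opposite directions. TIGK libraries held 2209, 2047 and 1981 normalized counts in control and 1555, 1548 and 1622 after H2O2, all 3 below every control library. HaCaT libraries held 2328, 2461 and 2316 in control and 3614, 4178 and 3577 after H2O2, all 3 above every control library. The log2 fold change was -0.40 in TIGK (SE 0.0678, adjusted p = 0.000151) and 0.68 in HaCaT (SE 0.0663, adjusted p = 2.42e-07), and the difference of -1.08 passed as well (SE 0.0948, adjusted p = 4.95e-07).

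CHAC1 (ENSG00000128965, chr15:40952962-40956519, plus strand) encodes an enzyme that degrades glutathione, the main small antioxidant thiol of the cell, and holds the motif shown on the other strand. TIGK control libraries held 883, 832 and 738 normalized counts and treated ones 608, 601 and 551. HaCaT libraries held only 22.9, 6.63 and 15.8 in control and 37.8, 28.0 and 27.8 after H2O2. Treated libraries were thus all lower in TIGK and all higher in HaCaT, yet neither response passed the limit of 0.01. The log2 fold change was -0.48 in TIGK (SE 0.140, adjusted p = 0.0119) and 0.96 in HaCaT (SE 0.295, adjusted p = 0.0115). The difference of the responses passed at -1.44 (SE 0.326, adjusted p = 0.00688). That call rests on a few counts in HaCaT, 52 in all control libraries and 84 in all treated ones. It was lost without TIGK control replicate 1 or 2, without any one of the TIGK H2O2 replicates, without HaCaT control replicate 2 or 3, and without HaCaT H2O2 replicate 1 or 2 (differences of -1.92 to -1.14 and adjusted p up to 0.0285 over all libraries left out singly).

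ASNS (ENSG00000070669, chr7:97852118-97872542, minus strand) encodes asparagine synthetase, a classical target of ATF4 when amino acids are scarce. Its normalized counts were 88.5, 111 and 122 in TIGK control and 73.1, 61.9 and 65.7 in TIGK H2O2, lower in every treated library. The HaCaT libraries held 7.64, 1.11 and 3.95 before and 12.2, 4.66 and 3.20 after H2O2, with overlap. Neither log2 fold change passed, at -0.68 in TIGK (SE 0.332, adjusted p = 0.117) and 0.54 in HaCaT (SE 0.615, adjusted p = 0.491). Without HaCaT H2O2 replicate 1 the value in HaCaT was -0.25. Of the 4896 exon bases of ASNS in GENCODE v44, 2415 also belong to a transcript on the same strand, AC079781.5, which had at most 5 counts in a library. How reads on both were counted is not given in the sources used here, and the level of ASNS is uncertain for that reason.

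SESN2 (ENSG00000130766, chr1:28259527-28282491, plus strand) encodes sestrin 2, a stress-induced protein that restrains the growth regulator mTORC1. Normalized counts fell from 1728, 1731 and 1849 in TIGK control to 1199.9, 1348 and 1238 in TIGK H2O2. In HaCaT they were 371, 393 and 435 before and 378, 419.8 and 378 after H2O2, with full overlap. SESN2 had a log2 fold change of -0.49 in TIGK (SE 0.0782, adjusted p = 8.94e-05) and -0.03 in HaCaT (SE 0.0888, adjusted p = 0.837). The difference of -0.46 missed the limit (SE 0.118, adjusted p = 0.0155).

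DDIT4 (ENSG00000168209, chr10:72273920-72276036, plus strand) encodes REDD1, another inhibitor of mTORC1. TIGK libraries held 7646, 7313 and 6899.8 normalized counts in control and 8080.1, 8511 and 8914 after H2O2, higher in every treated library. HaCaT libraries held 4261, 4306 and 3893 in control and 4162, 5039 and 4562 after H2O2, with overlap. The log2 fold change of 0.22 in TIGK just missed the limit (SE 0.0672, adjusted p = 0.0146), and that of 0.14 in HaCaT did not pass (SE 0.0682, adjusted p = 0.0932). The difference was 0.08 (SE 0.0957, adjusted p = 0.661).

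GDF15 (ENSG00000130513, chr19:18374731-18389176, plus strand) encodes a secreted stress hormone of the TGF-beta family. Its normalized counts in TIGK were 74.2, 61.2 and 80.5 in control and 73.1, 109 and 99.0 after H2O2, with overlap and a log2 fold change of 0.38 (SE 0.324, adjusted p = 0.383). HaCaT libraries held 2, 0 and 0 raw counts before and 1, 2 and 0 after H2O2, so no fold change was derived for that line. All 3 control libraries together held 209 counts in TIGK and 2 in HaCaT, a ratio of 116 after scaling for library size (exact 95% interval 31.7 to 965). After H2O2 they held 302 and 3, a ratio of 85.4 (28.9 to 416). These intervals cover counting error only. GDF15 was included only through its counts in TIGK, so the lines had to differ, and the intervals are no test of that difference.

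**Figure D2:**
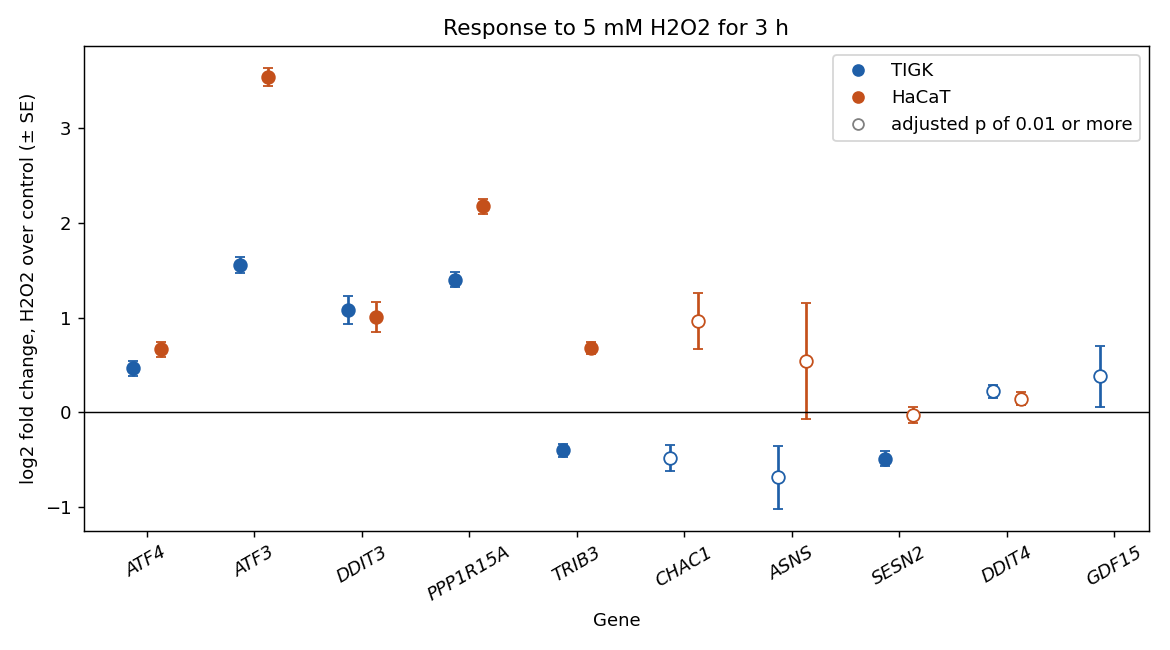
Log2 fold change of H2O2 over control (y axis, bars are SE of the fit to all 12 libraries) for each gene (x axis) in TIGK and HaCaT, with open symbols at an adjusted p of 0.01 or more. ATF3, PPP1R15A, TRIB3 and CHAC1 lie lower in TIGK than in HaCaT, while DDIT3 and ATF4 lie close together, and GDF15 in HaCaT is left out for lack of counts.

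Set side by side, 4 of the 10 genes responded differently in the lines, ATF3, PPP1R15A, TRIB3 and CHAC1, each with the lower value in TIGK, where 2.98% of all genes tested had a lower response in TIGK and 5.30% differed in either direction. The number with a higher response in TIGK was 0 by edgeR at an adjusted p under 0.01, where 2.32% of all genes tested had one. By DESeq2, and at an unadjusted p under 0.05 in edgeR, the number was 0 as well. ASNS and GDF15 are among the 10 here, but their few counts in HaCaT left little room for a call in either direction. CHAC1 is counted here with the limits given above. The median difference over the genes other than GDF15 was -0.77, beside -0.0418 over all genes tested. It still includes ASNS, which reached the mean needed for a test only through TIGK and whose difference of -1.22 had an SE of 0.699.

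Between the untreated lines, the 10 genes lay mostly lower in HaCaT. ASNS and GDF15 reached the mean count needed for a test through TIGK alone, so they had to differ, and their values are given with no test. Of the other 8 genes, 6 were called lower in HaCaT, where 30.8% of all genes tested were lower, 29.1% were higher and 59.9% differed in either direction. Among the factors of transcription and dephosphorylation, ATF3 had a log2 fold change (HaCaT over TIGK) of -1.89 (SE 0.0949, adjusted p = 1.48e-12), DDIT3 of -1.03 (SE 0.159, adjusted p = 1.14e-05) and PPP1R15A of -0.80 (SE 0.0771, adjusted p = 2.29e-08). DDIT4 was at -0.81 (SE 0.0681, adjusted p = 3.17e-09), SESN2 at -2.15 (SE 0.0843, adjusted p = 3.75e-14) and CHAC1 at -5.67 (SE 0.208, adjusted p = 1.30e-14), a level 50.9-fold lower in HaCaT. The fitted value of ASNS was -4.52 (SE 0.452). ATF4 did not pass (log2 fold change -0.08, adjusted p = 0.365), and its libraries overlapped. TRIB3 was higher in every HaCaT library but missed the limit (0.19, SE 0.0669, adjusted p = 0.0184). It passed without TIGK control replicate 1 (adjusted p = 0.00975) and when HaCaT H2O2 replicate 1 or 2 was left out (0.0079 and 0.00478), with adjusted p of 0.00478 to 0.0763 over all alternatives. The number called higher in HaCaT was 0 by edgeR and by DESeq2, and 1 (TRIB3) at an unadjusted p under 0.05. Libraries of the lines did not overlap for 7 of these 8 genes (all but ATF4) and for 73.3% of all genes tested.

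After H2O2 the lines no longer differed past the limit in ATF3 (log2 fold change of HaCaT over TIGK 0.09, adjusted p = 0.341), and the sign turned without HaCaT H2O2 replicate 1 (-0.05). PPP1R15A (-0.03, adjusted p = 0.759) and ATF4 (0.12, adjusted p = 0.175) did not pass either, and the treated libraries of all 3 overlapped between lines. TRIB3 was 2.40-fold higher in HaCaT (log2 fold change 1.27, SE 0.0677, adjusted p = 3.93e-12). ASNS and GDF15 are again left out of the counts, since they had to differ. TRIB3 was the 1 gene of the other 8 called higher, where 30.2% of all genes tested were higher, and 4 were called lower, where 29.8% were lower and 60.0% differed in either direction. Of these 4, DDIT3 was at -1.10 (SE 0.149, adjusted p = 2.12e-06), DDIT4 at -0.89 (SE 0.0681, adjusted p = 8.19e-10) and SESN2 at -1.69 (SE 0.0852, adjusted p = 1.65e-12). CHAC1 remained 18.7-fold lower in HaCaT (-4.23, SE 0.194, adjusted p = 4.00e-13). The fitted value of ASNS was -3.30 (SE 0.446). Libraries did not overlap for 5 of the 8 genes (all but ATF4, ATF3 and PPP1R15A) and for 71.3% of all genes tested. These comparisons share their libraries with those of the responses.

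**Figure D3:**
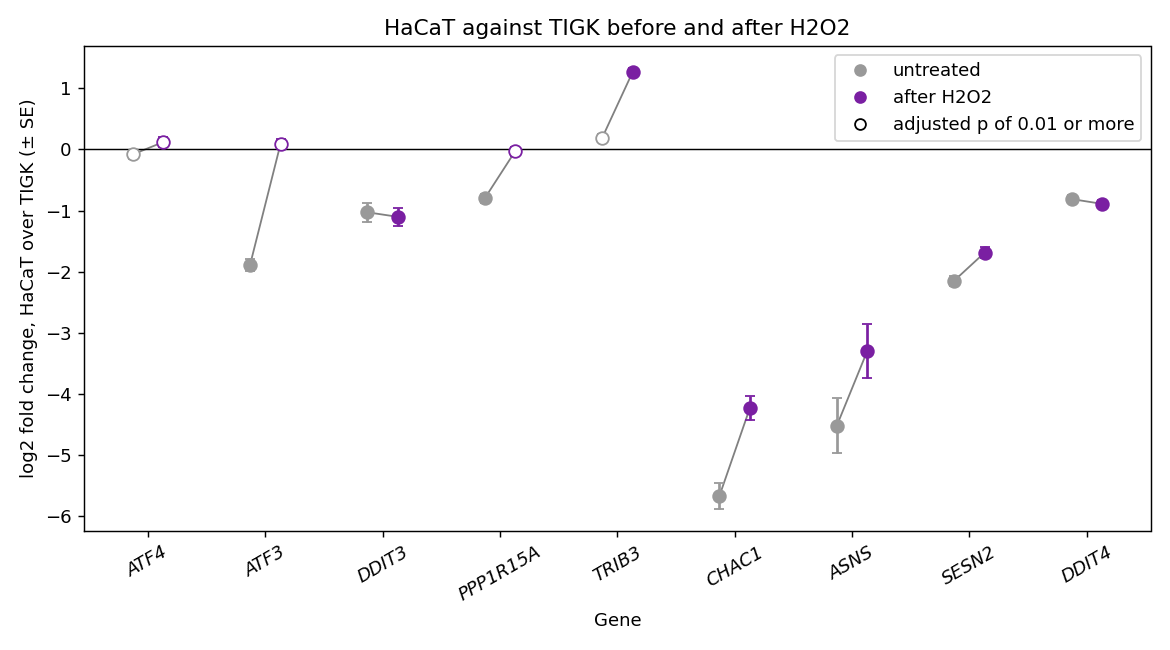
Log2 fold change of HaCaT over TIGK (y axis, bars are SE) for 9 genes (x axis) before and after H2O2, with open symbols at an adjusted p of 0.01 or more and GDF15 left out for lack of counts in HaCaT. ASNS was tested through its TIGK counts alone and had to differ. ATF3 moved from -1.89 to 0.09 and PPP1R15A from -0.80 to -0.03, while TRIB3 moved from 0.19 to 1.27 and CHAC1, ASNS and SESN2 stayed below 0.

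Compared per kilobase of gene length, DDIT4 and ATF4 had the highest levels in TIGK control (3540 ± 182 and 3270 ± 299 normalized counts per kb, SD, n = 3) and overlapped. PPP1R15A followed at 1166 ± 126, then TRIB3 at 605 ± 34.2, SESN2 at 512 ± 20.1, ATF3 at 427 ± 49.3, CHAC1 at 397 ± 35.7 and DDIT3 at 292 ± 27.7 per kb. ATF3 and CHAC1 overlapped in this order. GDF15 at 34.5 ± 4.72 and ASNS at 24.1 ± 3.86 per kb were the lowest. Exon bases shared with other genes leave the levels of ASNS and DDIT3 uncertain, and so their places in this order and the next. In HaCaT control, ATF4 stood above DDIT4 (3090 ± 51.5 and 2018 ± 110 per kb), TRIB3 and PPP1R15A overlapped (690 ± 23.5 and 670 ± 42.0), and DDIT3 came next at 143 ± 4.39. SESN2 and ATF3 overlapped at 116 ± 9.53 and 115 ± 2.70 per kb, above CHAC1 at 7.35 ± 3.97, ASNS at 0.950 ± 0.736 and GDF15 at 0.244 ± 0.423. The libraries of ASNS and GDF15 overlapped as well. After H2O2, ATF4 led in both lines (4513 ± 112 per kb in TIGK and 4906 ± 656 in HaCaT). PPP1R15A reached 3079 ± 102 and 3022 ± 269 per kb, and ATF3 reached 1254 ± 56.5 and 1336 ± 172. In HaCaT H2O2, ATF3 and TRIB3 (1104 ± 98.1 per kb) overlapped.

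Of 15 genes for the eIF2 kinases, eIF2, its exchange factor eIF2B, the constitutive phosphatase subunit and the mitochondrial relay of stress to eIF2, 6 were upregulated in TIGK, and 5 were upregulated and 2 downregulated in HaCaT (medians 0.09 and 0.13). Over all genes tested, 10.2% rose and 12.9% fell in TIGK, and 18.9% rose and 15.2% fell in HaCaT. OMA1, the mitochondrial protease of that relay, rose by a log2 value of 0.56 in TIGK (SE 0.137) and 0.73 in HaCaT (SE 0.136). EIF2B3 rose by 0.35 (SE 0.0877) and 0.62 (SE 0.0892), and EIF2S2, the beta subunit of eIF2, by 0.28 (SE 0.0734) and 0.34 (SE 0.0735). EIF2B2 rose by 0.25 (SE 0.0690) and 0.30 (SE 0.0694). EIF2B5 rose by 0.26 in TIGK (SE 0.0537) and had a value of 0.15 in HaCaT that did not pass (adjusted p = 0.0267). The kinase gene EIF2AK1 rose by 0.22 in TIGK (SE 0.0494) and had a value of 0.08 in HaCaT (adjusted p = 0.174). The genes downregulated in HaCaT were EIF2AK2 (-0.25, SE 0.0610) and PPP1R15B, for the constitutive phosphatase subunit (-0.24, SE 0.0624). Their values in TIGK were -0.10 and 0.01 (adjusted p = 0.190 and 0.942). The TIGK calls of OMA1 (without TIGK control replicate 1 or 2 or TIGK H2O2 replicate 3, adjusted p 0.0151 to 0.0206), EIF2B3 (without TIGK control replicate 1 or 3 or TIGK H2O2 replicate 1 or 2, 0.0108 to 0.0329) and EIF2S2 (without TIGK control replicate 3 or TIGK H2O2 replicate 1 or 2, 0.0168 to 0.0369) were lost with single libraries. So was that of EIF2B2 in TIGK without any one of the TIGK libraries or HaCaT control replicate 1 or 3 (0.0106 to 0.0273), and in HaCaT without HaCaT control replicate 1 (0.0122). The count of 6 in TIGK was 3 without TIGK control replicate 1 or 3 or TIGK H2O2 replicate 1 or 2. In HaCaT the 5 became 3 without control replicate 1, and the 2 downregulated became 1 without control replicate 1 or 3 and 0 without control replicate 2 or H2O2 replicate 3.

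The 10 partners of ATF4 and related regulators moved both ways, with 2 up and 2 down in TIGK and 3 up and 2 down in HaCaT (medians 0.08 and 0.07). The shares of all genes tested were 10.2% up and 12.9% down in TIGK and 18.9% up and 15.2% down in HaCaT. CEBPB, a dimer partner of ATF4, fell by 0.82 on the log2 scale in TIGK (SE 0.0731) and by 0.70 in HaCaT (SE 0.0736). FOXO3, a stress-responsive forkhead factor, fell by 0.29 (SE 0.0682) and 0.45 (SE 0.0687). CEBPD rose by 0.54 (SE 0.0803) and 0.44 (SE 0.0846). BACH1, a repressor of antioxidant genes, rose by 0.33 in TIGK (SE 0.0572) and had a value of 0.17 in HaCaT (adjusted p = 0.0246). JDP2, a relative of ATF3, rose by 1.21 in HaCaT (SE 0.147) and had a value of 0.41 in TIGK (adjusted p = 0.0269), and ATF2 rose by 0.46 in HaCaT (SE 0.0723) and had a value of 0.21 in TIGK (adjusted p = 0.0346). FOXO3 lost its call in TIGK, which left 1 gene downregulated, without TIGK control replicate 3 or any one of the TIGK H2O2 replicates (adjusted p 0.0148 to 0.0194).

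Among 9 of 10 amino acid transporters with enough counts (SLC7A3 had too few), 4 were downregulated and 1 upregulated in TIGK, and 3 were downregulated and 2 upregulated in HaCaT (medians -0.47 and 0.15). Of all genes tested, 12.9% were downregulated and 10.2% upregulated in TIGK, and 15.2% and 18.9% in HaCaT. SLC7A11, the cystine importer that feeds glutathione synthesis, fell by 0.94 in TIGK (SE 0.0677) and by 0.61 in HaCaT (SE 0.0716). SLC7A5, which imports large neutral amino acids, fell by 0.77 (SE 0.0705) and 0.84 (SE 0.0707), and SLC7A1, which imports cationic ones, by 0.59 (SE 0.0690) and 0.56 (SE 0.0691). Transporters also differed between the lines. SLC1A4, a carrier of small neutral amino acids, went from 1703 ± 95.3 to 1188 ± 102 normalized counts (SD, n = 3) in TIGK, a log2 fold change of -0.52 (SE 0.0781), and from 2373 ± 88.9 to 2642 ± 245 in HaCaT, a difference of responses of -0.68 (SE 0.109, adjusted p = 0.000428). SLC38A2, another carrier of small neutral amino acids, went from 43447 ± 865 to 57336 ± 426 in TIGK and from 20026 ± 811 to 37831 ± 1849 in HaCaT, and rose by 0.40 (SE 0.0506) and 0.92 (SE 0.0510). Its difference of responses was -0.52 (SE 0.0715, adjusted p = 0.000101). SLC1A5, a glutamine carrier, went from 7346 ± 214 to 7433 ± 170 in TIGK and from 5666 ± 119 to 8155 ± 416 in HaCaT, a difference of -0.51 (SE 0.0727, adjusted p = 0.00014).

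Of 10 genes for serine, one-carbon, proline and cysteine synthesis, 3 rose in TIGK and 6 in HaCaT (medians 0.09 and 0.32). Of all genes tested, 10.2% rose in TIGK and 18.9% in HaCaT. PSPH and PSAT1 of serine synthesis rose by 0.51 (SE 0.0824) and 0.35 (SE 0.0567) in TIGK and by 0.55 (SE 0.0801) and 0.33 (SE 0.0566) in HaCaT. PYCR1, which makes proline, rose by 0.26 (SE 0.0609) and 0.61 (SE 0.0638), and SHMT2, the mitochondrial serine hydroxymethyltransferase, by 0.37 in HaCaT (SE 0.0574), beside a value of 0.10 in TIGK (adjusted p = 0.181). The call of PYCR1 in TIGK was lost without TIGK control replicate 3 (adjusted p = 0.012). Of 12 genes for aminoacyl-tRNA synthetases and the tRNA exporter XPOT, 2 rose in TIGK and 5 in HaCaT (medians 0.04 and 0.14), beside the same 10.2% and 18.9% of all genes. NARS, for asparagine, rose by 0.22 (SE 0.0522) and 0.23 (SE 0.0517), and AARS, for alanine, by 0.18 (SE 0.0495) and 0.36 (SE 0.0502). TARS rose by 0.25 (SE 0.0515) and YARS by 0.25 (SE 0.0480) in HaCaT, beside values of 0.05 and 0.09 in TIGK (adjusted p = 0.501 and 0.152). NARS lost its TIGK call without TIGK control replicate 2 or 3 or TIGK H2O2 replicate 2 (0.0108 to 0.0136), and its HaCaT call without HaCaT H2O2 replicate 2 (0.0144), where 3 of the 12 genes were called. AARS lost its TIGK call without any one of the TIGK control or HaCaT control libraries or without TIGK H2O2 replicate 1 or 3 (0.0117 to 0.0433). Without TIGK control replicate 2 or 3, the TIGK count was 0 at an adjusted p under 0.01.

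Of 17 further targets of ATF4 or CHOP with enough counts (FGF21 had too few), 2 rose and 3 fell in TIGK, and 3 rose and 1 fell in HaCaT (medians 0.11 and -0.02). Among all genes tested, 10.2% rose and 12.9% fell in TIGK, and 18.9% rose and 15.2% fell in HaCaT. BBC3, which encodes the cell death protein PUMA, rose by 1.80 in HaCaT (SE 0.227), from 34.8 ± 5.37 to 121 ± 13.6 normalized counts (SD, n = 3), and had a value of 0.63 in TIGK (adjusted p = 0.0308). EIF4EBP1, a repressor of cap-dependent translation, rose by 0.32 (SE 0.0859) in TIGK and 0.71 (SE 0.0836) in HaCaT, and ATG5, a gene of autophagy, by 0.47 (SE 0.0782) and 0.54 (SE 0.0783). BCL2L11, for the cell death protein BIM, fell by 0.49 in TIGK (SE 0.105), and STC2, for a secreted glycoprotein, by 0.39 (SE 0.0792), with values of -0.27 for both in HaCaT (adjusted p = 0.0461 and 0.0271). NDRG1, a stress-responsive gene, fell by 0.64 in HaCaT (SE 0.0745), from 9644 ± 1107 to 6195 ± 495, and held 18211 ± 519 and 17935 ± 895 in TIGK before and after H2O2, a difference of responses of 0.62 (SE 0.105, adjusted p = 0.000706). In TIGK, EIF4EBP1 lost its call without TIGK control replicate 2 or 3 or TIGK H2O2 replicate 1 or 2 (adjusted p 0.022 to 0.0329), and BCL2L11 without TIGK H2O2 replicate 1 or 3 (0.0107 and 0.0123). The 2 that rose in TIGK became 1 without TIGK control replicate 2 or 3 or TIGK H2O2 replicate 2, the 3 that fell became 1 without TIGK H2O2 replicate 1, and the 1 that fell in HaCaT became 2 without HaCaT control replicate 2 or HaCaT H2O2 replicate 1.

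The other branches of the unfolded protein response sense misfolded proteins in the endoplasmic reticulum. Of 16 genes listed for them, 10 were upregulated and 1 downregulated in TIGK, and 10 were upregulated and 2 downregulated in HaCaT (medians 0.21 and 0.39). The activity of the branches was not measured. HERPUD1, which takes part in the degradation of misfolded proteins, rose by 1.15 in TIGK (SE 0.0796) and 1.15 in HaCaT (SE 0.0811). SDF2L1, for a luminal protein of that compartment, rose by 0.71 (SE 0.0773) and 0.90 (SE 0.0767). MANF rose by 0.55 (SE 0.1003) and 0.53 (SE 0.1003), and DNAJB9, a co-chaperone, by 0.42 (SE 0.109) and 0.76 (SE 0.110). DNAJB9 lost its TIGK call without TIGK control replicate 2 or 3 or TIGK H2O2 replicate 1 or 2 (adjusted p 0.0141 to 0.0331). ERN1, the sensor IRE1, fell by 1.32 in TIGK (SE 0.102) and by 0.85 in HaCaT (SE 0.102). The 10 upregulated genes in TIGK became 6 without TIGK control replicate 2 or 3 or TIGK H2O2 replicate 1. Shares of all genes for these counts are those given above, 10.2% up and 12.9% down in TIGK and 18.9% up and 15.2% down in HaCaT. In every list but the transporters and the further targets, the number of genes whose responses differed between the lines was 0 by edgeR. At this limit, 5.30% of all genes tested differed. At an unadjusted p under 0.05 the number was 3 upstream genes, 2 partners, 4 synthesis genes, 5 tRNA genes and 5 of the unfolded protein response. DESeq2 called 1 gene in each of these lists but 0 in the last. The share of all genes at the unadjusted limit is not given here, so those counts cannot be read as more or fewer than usual.

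**Figure D4:**
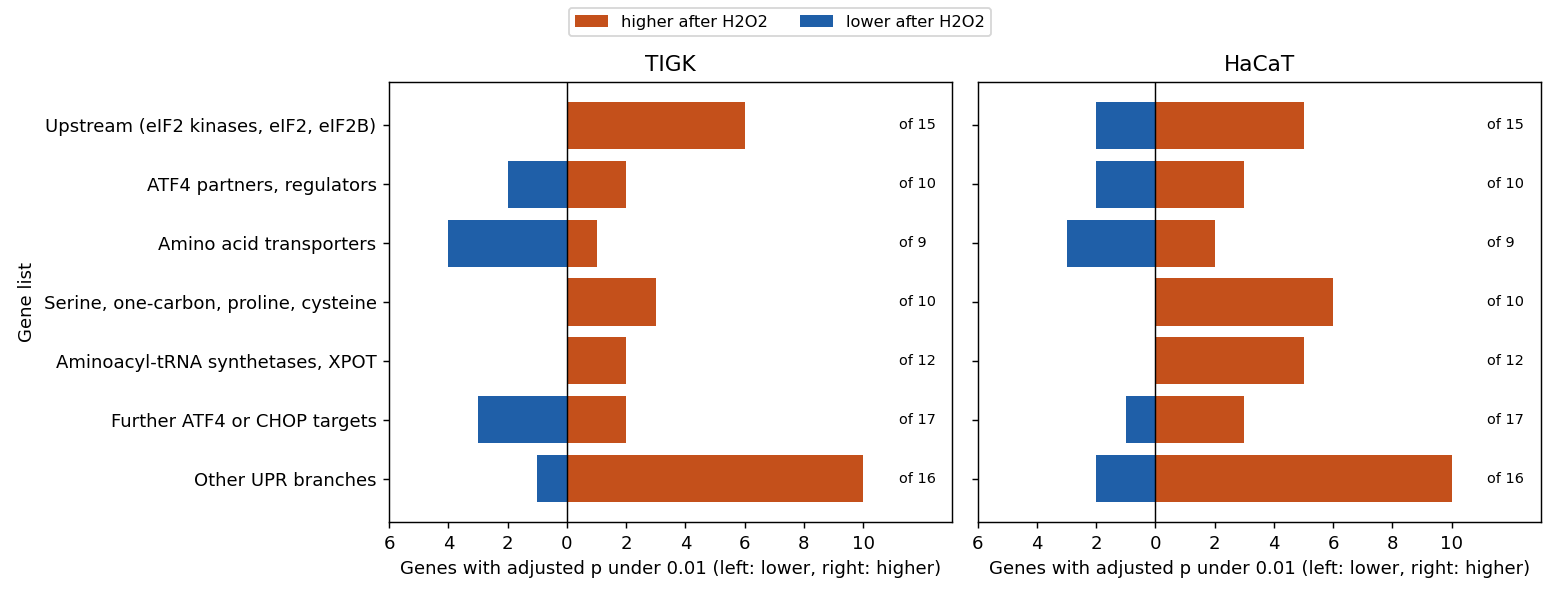
Number of genes with an adjusted p under 0.01 (x axis, lower after H2O2 to the left, higher to the right) in each of 7 gene lists (y axis) in TIGK and HaCaT, with the number tested beside each bar. The unfolded protein response list had 10 genes higher in each line, and the transporters had more genes lower than higher in both lines.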

How the data were processed

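For all 12 libraries, the deposited values were the authors' raw gene counts, unnormalized and held in 1 table, from paired reads mapped to GRCh38 (hg38) with HISAT2 and counted with featureCounts 1.5.0-p3. The submitters' processing notes name HISAT2 2.0.0 and 2.0.5 and StringTie 1.3.3b, and the notes and the paper differ on the provider. The annotation release, strand setting and handling of reads shared by genes are not given in the sources used here. The labels of treated libraries spell the agent as H2O2, with other last digits in replicates 2 and 3, while the treatment description gives H2O2 throughout. Further deposited files hold fold changes and p-values of the authors' own comparisons and were not used. The table had 0 unused columns of sample values.

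Libraries were grouped by title. The counts went into edgeR 4.0.16 under R 4.3.3 (TMM, 1 mean per group over all 12 libraries, quasi-likelihood test, common dispersion 0.0073, 10.35 prior degrees of freedom), limma 3.58.1 and DESeq2 1.42.0 as an alternative. Figures used matplotlib 3.10.9 under Python 3.11.15. Tests covered genes whose raw count averaged 10 or more over the libraries, with adjusted p-values under 0.01 called. SE values are those of the log2 fold changes. The contrasts were each line's response to H2O2, the difference of these responses, and HaCaT against TIGK before and after H2O2. Alternatives were DESeq2, other scalings and filters, a limit of 0.05, fits on the compared groups alone, a replicate block, and each library left out in turn. The fit was tested on simulated counts. The 10 genes, the 7 further lists and their tests were chosen with earlier results of these data known. The lists were written from general knowledge. Of each list, up to 4 called genes with the largest absolute change in each line were named, and up to 4 whose responses differed. EIF2AK1, EIF2AK2 and PPP1R15B were named in addition.

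Library totals were 33769534 to 35383267 counts in TIGK control, 30426401 to 44252343 in TIGK H2O2, 33658365 to 49034244 in HaCaT control and 32135195 to 35165897 in HaCaT H2O2. Replicates of 1 group differed by more than counting noise in each of the pairs compared (chi-square per degree of freedom of 4.45 to 28.2). Precision is limited by this spread, and for ASNS, CHAC1 and GDF15 in HaCaT also by the few counts. How much each contributes for a single gene was not tested.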

Additional observations from a re-analysis of the deposited data

Results flagged for a closer look

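Of the 10 genes of the integrated stress response, 4 are listed because the difference of their responses (TIGK minus HaCaT, log2 scale) passed an adjusted p of 0.01 in edgeR. Over all genes tested, 5.30% differed in either direction and 2.98% had a lower response in TIGK. The differences were -1.98 for ATF3, which rose in both lines, -0.77 for PPP1R15A, which also rose in both, -1.08 for TRIB3, which fell in TIGK and rose in HaCaT, and -1.44 for CHAC1, whose responses did not pass in either line. Every treated library of TRIB3 and CHAC1 lay below the controls in TIGK and above them in HaCaT, while the mitochondrial share of counts fell in both lines. Without 1 library, the difference of CHAC1 missed the limit in 9 of 12 cases.

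Among the amino acid transporters, the differences were -0.68 for SLC1A4, -0.52 for SLC38A2 and -0.51 for SLC1A5. The further target NDRG1 differed by 0.62 in the other direction, with a fall in HaCaT.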

How the results depend on the processing

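The log2 fold changes of the 10 genes were recomputed under up to 21 alternatives, which gave 999 values. Of these, 959 kept their direction and their side of the limit, 9 lost the call, 27 gained it and 4 turned in sign. The limit of 0.05 was applied to the main fit itself. Its values could only keep or gain a call, so they show nothing about robustness either. The 959 include ASNS and GDF15 between the lines. These had to differ, so that they kept their call shows nothing about robustness. The 9 lost calls were all the difference of CHAC1 without 1 library. The 4 turned values were the lowest or highest of these ranges over single libraries left out: -0.25 to 1.32 for ASNS in HaCaT, -0.0754 to 0.26 for the DDIT3 difference and -0.0498 to 0.14 for ATF3 in HaCaT against TIGK after H2O2, each negative without HaCaT H2O2 replicate 1, and -0.11 to 0.0388 for SESN2 in HaCaT, positive without HaCaT control replicate 3. None of these was called before or after.

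CHAC1 passed in TIGK in 8 and in HaCaT in 4 of 21 alternatives, DDIT4 in TIGK in 8, TRIB3 between the untreated lines in 5, and the SESN2 difference in 2 of 20. Each of these numbers includes the limit of 0.05 on the main fit. The number of the 10 genes called higher in untreated HaCaT became 1 with no filter and with the limit of 0.05, and ranged from 0 to 1 when single libraries were left out.

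Same-numbered replicates are not said to belong together, and their deviations did not correlate (-0.121 to 0.0257 over 18 pairs, against -0.0287 to 0.118 over 36 others). A replicate block left the counts of called genes among the 10 as they were, and the genes with a lower response in TIGK became 326 in place of 496. EIF2S2, AARS, EIF4EBP1 and EIF2B2 lost their calls in TIGK under the block (adjusted p 0.0143, 0.0215, 0.0152 and 0.0153).

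Counts over all genes moved more. Those upregulated in TIGK went from 1699 to 2571 with no filter and 2877 at the limit of 0.05, and those upregulated in HaCaT from 3135 to 2061 without HaCaT H2O2 replicate 2. Genes with a higher response in TIGK went from 385 to 685 with DESeq2, 769 with no filter, 847 at 0.05 and 704 without HaCaT H2O2 replicate 1. Genes with a lower response in TIGK went from 496 to 326 with filterByExpr and 1172 at 0.05. They numbered 222 without TIGK control replicate 2, 186 and 191 without TIGK H2O2 replicate 2 or 3, 294 and 300 without HaCaT control replicate 1 or 2, and 211 without HaCaT H2O2 replicate 2. Fits on the compared groups alone called 3 upstream genes and 3 tRNA genes higher in HaCaT in place of 5 and 5, and 1 tRNA gene in TIGK in place of 2, as did upper-quartile scaling and the replicate block. At the limit of 0.05, partners higher in TIGK numbered 4 in place of 2, genes of the unfolded protein response lower in TIGK 2 in place of 1, and further targets lower in HaCaT 3 in place of 1, or 2 with no filter. DESeq2, the limit of 0.05 and a fit without the mitochondrial chromosome each called 1 tRNA gene lower in HaCaT in place of 0. The cause of these shifts was not tested.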
